A study of Mus musculus with 12 samples.

Results

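The Grainyhead and CP2 transcription factors form one family, and its members Grhl1, Grhl2, Grhl3, Tfcp2 and Ubp1 were followed in mouse kidneys. They were taken as the rows of the deposited gene table whose gene name equals a member, which gave 5 of 46403 genes. All 5 members passed the filter on low counts, among 23742 genes tested. Tfcp2l1, the remaining CP2 gene, was measured beside them as a gene linked to the family. Messenger RNA of 12 whole right kidneys was sequenced, in a study that asks how Grhl2 bears on the growth of renal cysts. The Grhl2KO_Myc group (n = 4) is labelled as Grhl2 knockout with Myc overexpression. They came from crosses of floxed Grhl2 with R26StopFLMYC, a MYC transgene that needs Cre to be switched on, and with HoxB7-Cre, whose promoter works in ureteric bud cells and in the collecting duct they form. The Myc group (n = 3) is labelled as Myc overexpression. The sources used here do not describe its cross. Its library names carry HET, where those of Grhl2KO_Myc carry KO and those of wildtype carry WT. Which gene HET refers to is unstated, so whether the Myc kidneys were heterozygous for Grhl2 cannot be told. The wildtype group (n = 5) carried R26StopFLMYC with both Grhl2 alleles floxed, and no Cre is stated for it. No treatment is listed, and the age of the mice is unstated in the sources used here. The labels do not say whether kidneys within a group were from separate animals, litters or days, so each p-value measures only the spread between these libraries.

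Grainyhead factors bind DNA as dimers and keep epithelial sheets closed by driving genes of tight junctions, adherens junctions and desmosomes. Grhl2 is the member best known in simple epithelia such as the collecting duct, while Grhl1 and Grhl3 are known for the epidermis, its desmosomes and its water barrier, and Grhl3 also for the umbrella cells of the bladder. The CP2 branch is related in its DNA-binding domain: Tfcp2 and Ubp1 are expressed in most tissues, and Tfcp2l1 is known in the kidney for its part in shaping the collecting duct.

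Library totals ran from 75187006 to 108164810 counts in Grhl2KO_Myc, from 70608817 to 101043826 in Myc and from 52973520 to 98713157 in wildtype. Levels below are counts scaled to library size with the TMM method (CPM). Kidney markers were present in every library, with Aqp2 of the collecting duct at 212 to 547 CPM, Umod of the thick limb at 144 to 444, Slc34a1 of the proximal tubule at 224 to 1231 and Nphs1 of podocytes at 34.9 to 73. A score of 20 proximal tubule markers (mean log2 CPM, centred over the libraries) was low in Grhl2KO_Myc 3 (-1.15), Grhl2KO_Myc 4 (-1.02) and wildtype 4 (-1.32), against -0.1 to 0.78 in the other 9, so results that turn on these libraries are also given without them. The Y-linked gene Ddx3y exceeded 10 CPM in Grhl2KO_Myc 1 and 4, Myc 3 and wildtype 5, and differences of Grhl2 and Grhl3 are also given within the libraries that had it and those that did not. Grhl2KO_Myc 3 stood apart in having neither Ddx3y (0 CPM) nor Xist (0.213 CPM), while Xist was at 871 to 1006 CPM in the other 7 libraries without Ddx3y. Transcripts of the Myc gene averaged 30.1 ± 2.23 CPM in Grhl2KO_Myc, 23.6 ± 4.24 in Myc and 26.7 ± 6.06 in wildtype (SD), and whether transgene reads are among them cannot be told from gene counts. In whole kidneys, fewer cells of a type and less RNA per cell cannot be told apart. Grhl2KO_Myc against wildtype and Myc against wildtype share the wildtype libraries, and both comparisons of Grhl2KO_Myc share its libraries.

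Between Grhl2KO_Myc and wildtype kidneys 1 of the 5 members was called at an adjusted p under 0.05 (edgeR quasi-likelihood test, Benjamini-Hochberg adjusted over all genes tested), where 6.67% of all tested genes were called, 4.06% higher and 2.61% lower. That member was Grhl3, and it was higher. Between Grhl2KO_Myc and Myc kidneys 1 of 5 was called, against 0.842% of all tested genes, 0.358% higher and 0.484% lower. That member was Grhl2, and it was lower. Grhl2 is the gene that the cross targets, so this call says nothing about the rest of the family. EdgeR called no other member there. Between Myc and wildtype kidneys edgeR called 0 of 5 members, with 0 at an unadjusted p under 0.05, 0 by DESeq2 and 0 by limma-voom, against 0.00421% of all tested genes called and 4.62% at an unadjusted p under 0.05. Grhl2 came nearest there, with an unadjusted edgeR p that rounds to 0.05 and lay just above that limit. At an unadjusted p under 0.05 there were 2 of 5 members in Grhl2KO_Myc against wildtype, where 22% of all tested genes were, and 2 of 5 in Grhl2KO_Myc against Myc, where 13.3% were. DESeq2 called 2 of the 5 members in each comparison of Grhl2KO_Myc, and limma-voom called 1.

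**Figure D1:**
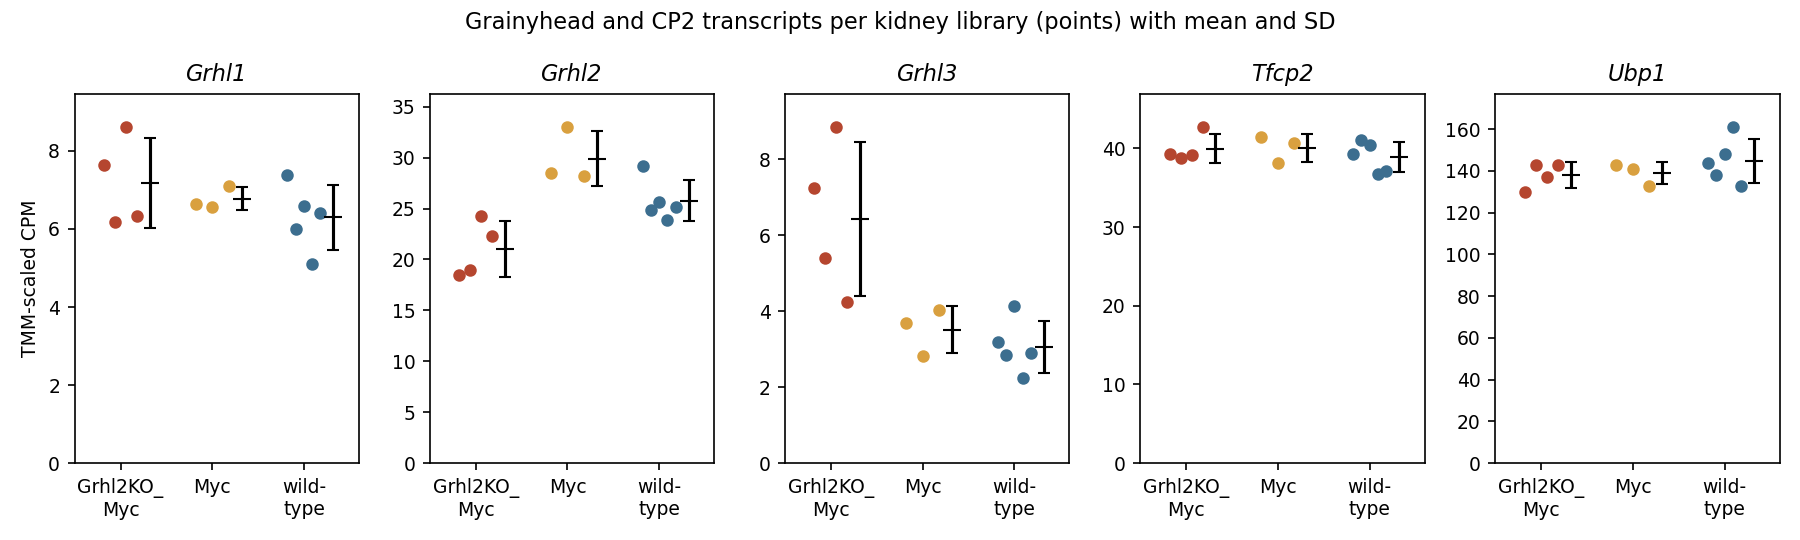
TMM-scaled CPM of each member (vertical axes, each starting at 0) in the 12 kidney libraries, with Grhl2KO_Myc, Myc and wildtype from left to right. Points are libraries, and black marks give the group mean with its SD. All 4 Grhl2KO_Myc points of Grhl3 (4.25 to 8.85 CPM) lie above the other 8, and the points of Tfcp2 and Ubp1 overlap between groups.

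Grhl2, the gene targeted in this cross, is annotated on the plus strand of chromosome 15 from 37233036 to 37363569 in mm10 (ENSMUSG00000022286.16), the build of every gene position below. It was measured at 18.5, 19, 24.3 and 22.3 CPM in Grhl2KO_Myc libraries 1 to 4. The Myc libraries 1 to 3 gave 28.5, 33 and 28.2 CPM, and the wildtype libraries 1 to 5 gave 29.2, 24.9, 25.6, 23.9 and 25.2 CPM. All Grhl2KO_Myc libraries were below all Myc libraries, while Grhl2KO_Myc 3 was above wildtype 4. Per kilobase of the exon width in the table, the level was 3.82 ± 0.505 CPM in Grhl2KO_Myc, 5.44 ± 0.492 in Myc and 4.68 ± 0.37 in wildtype (SD), so transcripts counted at the gene remained in the labelled knockout. HoxB7-Cre does not act in most cells of the kidney, and the floxed exons are unstated in the sources used here, so the share of these reads that came from a deleted allele was not tested.

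Grhl2 was 1.42-fold lower in Grhl2KO_Myc than in Myc (log2 fold change -0.51, SE 0.10, 95% interval -0.73 to -0.28, edgeR adjusted p = 0.044). The call was close to the threshold. It was lost without Grhl2KO_Myc 1, 2 or 4 (adjusted p 0.09, 0.11 and 0.091), without Myc 1, 2 or 3 (0.13, 0.21 and 0.077) and without wildtype 2, 3 or 5 (0.068, 0.063 and 0.062), with log2 fold changes of -0.59 to -0.43 over all single omissions. Without the 3 libraries low in proximal tubule transcripts it was called at -0.68 (adjusted p = 0.011). Against wildtype the log2 fold change was -0.29 (SE 0.092, 95% interval -0.49 to -0.09, adjusted p = 0.082), which did not pass. It passed without wildtype 4 (-0.32, adjusted p = 0.044), without Grhl2KO_Myc 3 (-0.37, 0.049) and without the 3 libraries low in proximal tubule transcripts (-0.49, 0.013). Among libraries with a proximal tubule score above -0.5 the difference from wildtype was -0.48 on the log2 scale (2 against 4 libraries), and among those below it was -0.04 (2 against 1). Within the libraries with and without Ddx3y it was -0.31 (2 against 1) and -0.26 (2 against 4), and from Myc it was -0.47 (2 against 1) and -0.51 (2 against 2). In Myc over wildtype the log2 fold change was 0.22 (SE 0.099, 95% interval 0 to 0.43, adjusted p = 1). The span of the antisense model Gm16136 covers 274 exon bases of Grhl2, and the library kit does not mark strand, so reads of the pair cannot be told apart where exons overlap. The antisense model Gm16137 and the pseudogene Gm16138 cover 0 exon bases of Grhl2.

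Grhl3 (ENSMUSG00000037188.7, chromosome 4, 135541888 to 135573630, minus strand), the Grainyhead factor of epidermis and bladder lining, had a low level, with 34.4% of tested genes below its mean per kilobase over the 12 libraries. It was measured at 7.24, 5.4, 8.85 and 4.25 CPM in Grhl2KO_Myc libraries 1 to 4. The Myc libraries 1 to 3 gave 3.69, 2.82 and 4.04 CPM, and the wildtype libraries 1 to 5 gave 3.2, 2.85, 4.13, 2.24 and 2.9 CPM. All Grhl2KO_Myc libraries exceeded all others, and Grhl2KO_Myc 4, the lowest of its group, was close to Myc 3 and wildtype 3. Groups failed to overlap for 9.47% of tested genes in Grhl2KO_Myc against wildtype, for 16.8% in Grhl2KO_Myc against Myc and for 3.57% in Myc against wildtype, where all 5 members overlapped. These levels rest on 153 to 829 reads per library, for which counting error alone is 8.08% to 3.47% of the value.

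Grhl3 averaged 6.43 ± 2.03 CPM in Grhl2KO_Myc and 3.06 ± 0.69 CPM in wildtype (SD), and it rose 2.1-fold (log2 fold change 1.07, SE 0.22, 95% interval 0.6 to 1.55, edgeR adjusted p = 0.013). It was called in 12 of 12 fits that left out 1 library (0.88 to 1.23) and in 12 of 12 other settings (0.95 to 1.17). Over Myc it was 1.83-fold higher (3.52 ± 0.625 CPM in Myc, log2 fold change 0.87, SE 0.25, 95% interval 0.32 to 1.42, adjusted p = 0.15), which did not pass. That difference passed in 3 of 12 other settings, DESeq2 among them (adjusted p = 0.023), and in 0 of 12 fits that left out 1 library. Myc differed from wildtype by 0.20 (SE 0.24, 95% interval -0.32 to 0.72, adjusted p = 1). Within the libraries with and without Ddx3y, Grhl2KO_Myc exceeded wildtype by 0.93 (2 against 1) and 1.18 (2 against 4) on the log2 scale, and Myc by 0.46 (2 against 1) and 1.09 (2 against 2). Within proximal tubule scores above and below -0.5 it exceeded wildtype by 0.95 (2 against 4) and 1.45 (2 against 1).

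The promoter of Grhl3 is shown because Grhl3 is the member that rose, and its letters can be searched for sites of the family itself. The 250 bases before its RefSeq start (GRCm38.p6, chr4:135573633-135573882, minus strand) hold none of the Grainyhead motifs searched, which were AACCGGTT, AACCGGT, AACCNGTT and AACNNGTT on both strands.
Grhl3 promoter: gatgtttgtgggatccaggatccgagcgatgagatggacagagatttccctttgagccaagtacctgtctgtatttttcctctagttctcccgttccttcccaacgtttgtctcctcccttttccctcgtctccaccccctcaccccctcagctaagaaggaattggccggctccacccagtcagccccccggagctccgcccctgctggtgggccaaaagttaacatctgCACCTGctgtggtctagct
The capitals mark CACCTG, the E-box that Zeb factors bind, which starts 19 bases before the start. Its share among 32851 mouse promoters of this length is 17.2%. CACGTG, the E-box of MYC, is not in this window, and 6.02% of promoters hold it. AACCGGTT contains the other 3 Grainyhead motifs. It is in 0.116% of promoters, AACCGGT in 0.831%, AACCNGTT in 1.79% and AACNNGTT in 3.64%. A match or its absence describes only these letters.

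Urothelium, the lining of the bladder and the renal pelvis, is known to express Grhl3, so 12 urothelial markers were read in the same libraries, and none was at 0 in any of them. Their summed level was 188, 139, 172 and 33 CPM in Grhl2KO_Myc libraries 1 to 4. The Myc libraries 1 to 3 held 124, 79.3 and 161 CPM of them, and the wildtype libraries 1 to 5 held 91.3, 90.7, 137, 55.9 and 118 CPM. The groups overlapped, and Grhl2KO_Myc held both the highest and the lowest library. Of the 12 markers, edgeR called 0 in Grhl2KO_Myc against wildtype, with 1 at an unadjusted p under 0.05, 0 by DESeq2 and 0 by limma-voom. Their median log2 fold change was 0.45, with 11 of 12 above 0, beside -0.01 over all tested genes. In Grhl2KO_Myc against Myc the median was 0.11, with 9 of 12 above 0, and edgeR called 0 markers there (0 at an unadjusted p under 0.05, 0 by DESeq2 and 0 by limma-voom). In Myc against wildtype it was 0.38, with 11 of 12 above 0, and again edgeR called 0 (0 at an unadjusted p under 0.05, 0 by DESeq2 and 0 by limma-voom). Krt5 of basal urothelial cells averaged 7.45 ± 4.81 CPM in Grhl2KO_Myc, 5.71 ± 3.28 in Myc and 2.85 ± 2.64 in wildtype (log2 fold change of Grhl2KO_Myc over wildtype 1.38, SE 0.69, adjusted p = 0.27). The uroplakin Upk1a averaged 20.8 ± 10.6, 18.8 ± 5.58 and 14.6 ± 3.49 CPM in the same order (0.51, adjusted p = 0.46). Foxa1, a urothelial transcription factor, averaged 4.8 ± 1.92 CPM in Grhl2KO_Myc, 4.47 ± 1.27 in Myc and 3.04 ± 0.79 in wildtype (0.66, adjusted p = 0.22). The 3 libraries with the most Grhl3, Grhl2KO_Myc 1 to 3, had urothelial scores of 0.87, 0.40 and 0.69. Scores ran from -0.40 to 0.64 in Myc and from -0.95 to 0.46 in wildtype. Myc 3 (0.64) and wildtype 3 (0.46) were thus above Grhl2KO_Myc 2 (0.40). Grhl2KO_Myc 4 had the lowest urothelial score of the 12 libraries (-1.63), and its Grhl3 level of 4.25 CPM was close to the highest wildtype library (4.13), a gap within counting error. With the urothelial score as a covariate, chosen after seeing the data, Grhl3 stood at 0.95 over wildtype (edgeR adjusted p = 0.0018) and at 0.88 over Myc (adjusted p = 0.021). How much of the Grhl3 difference came with urothelial content was not tested.

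**Figure D2:**
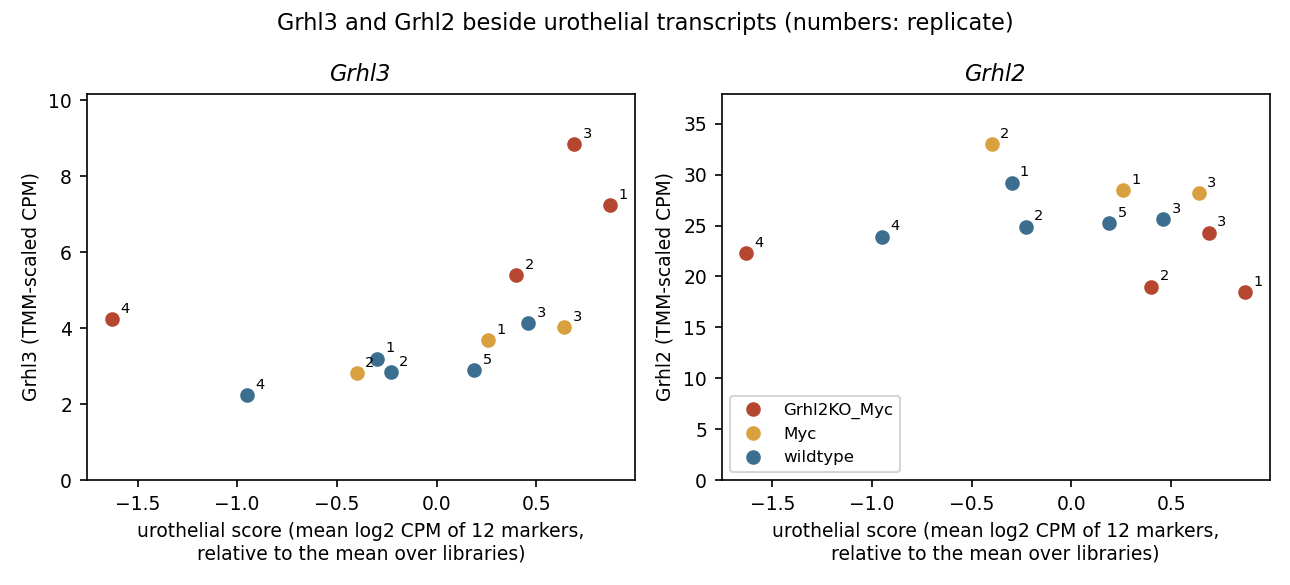
Grhl3 (left) and Grhl2 (right) in TMM-scaled CPM against the urothelial score of each library, the mean log2 CPM of 12 markers centred over the libraries. Points are libraries coloured by group and numbered by replicate. Grhl2KO_Myc 4 has the lowest score of all (-1.63) and a Grhl3 level of 4.25 CPM, against 4.13 in the highest wildtype library.

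Grhl1 (ENSMUSG00000020656.16, chromosome 12, 24572283 to 24617391, plus strand), which in mouse skin maintains desmosomes, was measured at 7.63, 6.17, 8.61 and 6.33 CPM in Grhl2KO_Myc libraries 1 to 4. In Myc it stood at 6.64, 6.57 and 7.11 CPM, and in wildtype at 7.39, 6.01, 6.59, 5.1 and 6.4 CPM. The 3 groups overlapped. The log2 fold change was 0.19 over wildtype (SE 0.12, 95% interval -0.07 to 0.45, adjusted p = 0.39) and 0.08 over Myc (SE 0.14, 95% interval -0.22 to 0.38, adjusted p = 0.83), and Myc over wildtype gave 0.11 (95% interval -0.18 to 0.39). Libraries of a group differed from their mean by an SD of 0.19 on the log2 scale for Grhl1, 0.14 for Grhl2 and 0.36 for Grhl3, against 0.07 for Tfcp2 and 0.08 for Ubp1.

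**Figure D3:**
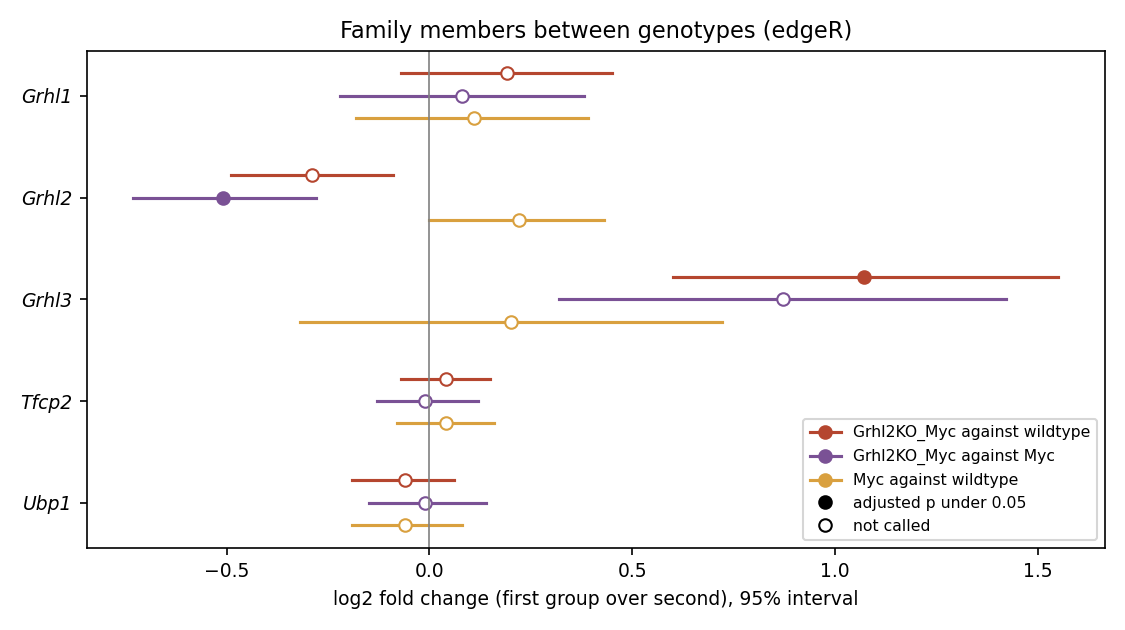
Log2 fold changes of the 5 members (first group over second) with 95% intervals from edgeR, for Grhl2KO_Myc against wildtype, Grhl2KO_Myc against Myc and Myc against wildtype. Filled points passed an adjusted p of 0.05: Grhl3 over wildtype (1.07) and Grhl2 below Myc (-0.51). The intervals of Tfcp2 and Ubp1 are the narrowest.

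Set side by side per kilobase, the 3 Grainyhead transcripts differed between genotypes in their proportions. Grhl2 supplied 47.1 ± 5.93% of their sum in Grhl2KO_Myc (range 41.3 to 54.9), 62.9 ± 4.09% in Myc (59.6 to 67.5) and 61.9 ± 2.78% in wildtype (58 to 65.8). Grhl3 supplied 27.8 ± 5.28% in Grhl2KO_Myc (20.6 to 31.9), 14.6 ± 2.85% in Myc (11.4 to 16.8) and 14.4 ± 2.42% in wildtype (12.1 to 18.5). Both shares separated Grhl2KO_Myc from the other groups without overlap, as a description of the levels already tested. Grhl1 supplied 25.1 ± 1.12%, 22.4 ± 1.26% and 23.7 ± 1.07% in Grhl2KO_Myc, Myc and wildtype. The sum itself was 8.19 ± 1.34 CPM per kilobase in Grhl2KO_Myc (7.15 to 10.1), 8.63 ± 0.246 in Myc (8.4 to 8.89) and 7.58 ± 0.746 in wildtype (6.61 to 8.57), and the groups overlapped. The ratio of Grhl2 to Grhl3 was 1.78 ± 0.624 in Grhl2KO_Myc, 4.46 ± 1.28 in Myc and 4.4 ± 0.822 in wildtype.

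At the widths in the table, Grhl2 was the most abundant Grainyhead transcript per kilobase in all 12 libraries. Grhl3 exceeded Grhl1 in 3 of 4 Grhl2KO_Myc libraries, 0 of 3 Myc libraries and 0 of 5 wildtype libraries. These orders depend on the assumed length: with merged exon lengths of GENCODE M21, which are longer for Grhl1 (5539 against 3500 bases) and Grhl2 (8613 against 5506) and equal for Grhl3 (2789), Grhl3 exceeded Grhl1 in 4 of 4 Grhl2KO_Myc, 2 of 3 Myc and 1 of 5 wildtype libraries. Grhl2 was then the highest of the 3 in 2 of 4 Grhl2KO_Myc, 3 of 3 Myc and 5 of 5 wildtype libraries, and Grhl3 was the highest in Grhl2KO_Myc 1 and 3. With those lengths the mean share of Grhl2 was 40.9% in Grhl2KO_Myc, 58.3% in Myc and 57.4% in wildtype, and that of Grhl3 was 37.6%, 21.2% and 20.9%. Neither share overlapped between Grhl2KO_Myc and the other groups with those lengths either (Grhl3 at 29 to 42.4% in Grhl2KO_Myc, 16.8 to 24.1% in Myc and 17.8 to 26.2% in wildtype).

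**Figure D4:**
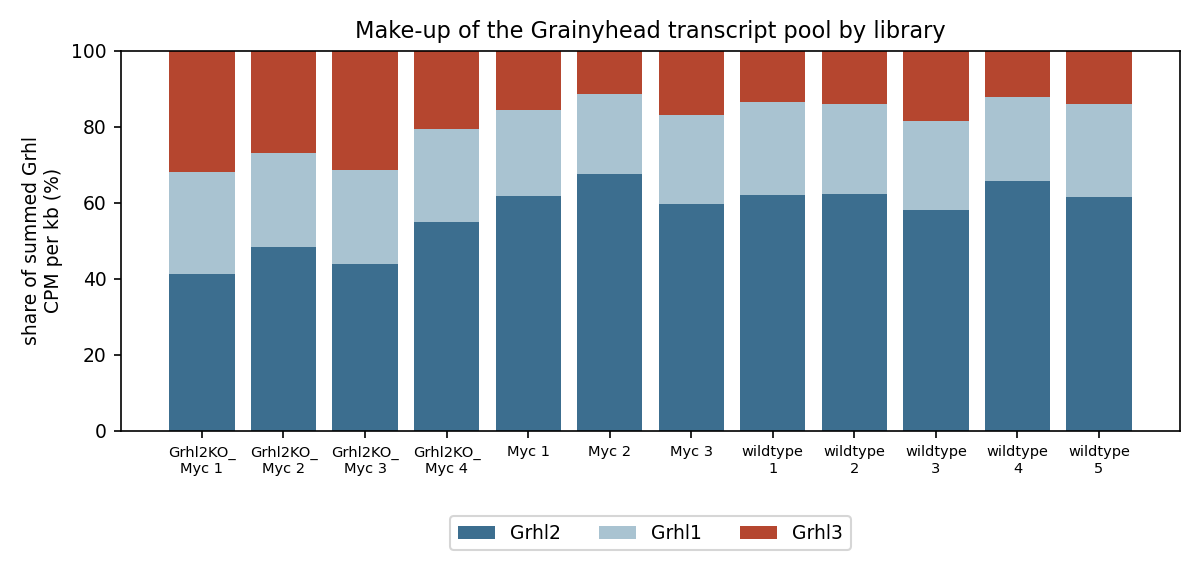
Share of each Grainyhead transcript in the sum of Grhl1, Grhl2 and Grhl3 (CPM per kilobase of the table's exon width, percent) for each of the 12 libraries, stacked to the whole. The Grhl2 segment runs from 41.3 to 54.9% in Grhl2KO_Myc libraries, and from 58 to 67.5% in the Myc and wildtype libraries together.

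The CP2 factors were more abundant per kilobase than the Grainyhead factors, and neither was called in any comparison. Tfcp2 (ENSMUSG00000009733.9, chromosome 15, 100498012 to 100552008, minus strand), a factor found in most tissues, was measured at 39.3, 38.8, 39.1 and 42.7 CPM in Grhl2KO_Myc libraries 1 to 4. It stood at 41.5, 38.1 and 40.7 CPM in Myc and at 39.3, 41, 40.4, 36.8 and 37.1 CPM in wildtype. All groups overlapped. The fold between Grhl2KO_Myc and wildtype had a 95% interval of 0.951 to 1.11 (log2 fold change 0.04, SE 0.051, adjusted p = 0.71), and that between Grhl2KO_Myc and Myc one of 0.913 to 1.09 (-0.01, SE 0.058, adjusted p = 0.98). Myc over wildtype gave a log2 fold change of 0.04 (95% interval -0.08 to 0.16).

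Ubp1 (ENSMUSG00000009741.15, chromosome 9, 113930934 to 113977202, plus strand), the CP2 factor needed for placental and vascular growth in mice, had the highest level of the 5 members, with 92.5% of tested genes below its mean per kilobase. It was measured at 130, 143, 137 and 143 CPM in Grhl2KO_Myc libraries 1 to 4. It stood at 143, 141 and 133 CPM in Myc and at 144, 138, 148, 161 and 133 CPM in wildtype, where wildtype 4, also low in proximal tubule transcripts, was the highest of all. The groups overlapped, with 95% intervals of the fold of 0.876 to 1.04 for Grhl2KO_Myc over wildtype (log2 fold change -0.06, SE 0.058, adjusted p = 0.57) and 0.901 to 1.1 for Grhl2KO_Myc over Myc (-0.01, SE 0.066, adjusted p = 0.98). Ubp1 exceeded Tfcp2 in all 12 libraries, with a ratio per kilobase of 2.93 ± 0.14 in Grhl2KO_Myc, 2.93 ± 0.181 in Myc and 3.15 ± 0.325 in wildtype. This ratio depends on the assumed length. GENCODE M21 gives 8063 bases for Tfcp2 against 3250 deposited, and 4757 for Ubp1 against 3850. With M21 lengths Tfcp2 averaged 4.96, 4.98 and 4.83 CPM per kilobase in Grhl2KO_Myc, Myc and wildtype, and Ubp1 29.1, 29.3 and 30.4. The span of Fbxl2 on the opposite strand, introns included, covers 2687 exon bases of Ubp1, among them the 119 within the antisense model Gm47950. Reads from either strand there cannot be told apart where exons overlap. The window before the second listed start of Ubp1 (GRCm38.p6, chr9:113930984-113931012, plus strand) is shown because it holds the only Grainyhead motif found before a start of the 4 members present in the promoter table, Grhl1, Grhl3, Tfcp2 and Ubp1.
Ubp1 window: cagccgagcgtAACCGGTcacacctcttc
The capitals mark AACCGGT, which starts 153 bases before that start. In GENCODE M21 the Ubp1 gene begins at 113930934, so by that annotation the match lies inside the gene. AACCGGT is in 0.831% of 32851 mouse promoters of 250 bases.

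Tfcp2l1 (ENSMUSG00000026380.10, chromosome 1, 118627945 to 118685168, plus strand), the CP2 gene enriched in the collecting duct, averaged 333 ± 10.8 CPM in Grhl2KO_Myc, 363 ± 20.8 in Myc and 336 ± 24 in wildtype. Per kilobase of the deposited width it stood at 35.3 ± 1.14, 38.4 ± 2.21 and 35.6 ± 2.54 CPM, near Ubp1 at 36 ± 1.58, 36.2 ± 1.34 and 37.6 ± 2.85, and above Tfcp2 at 12.3 ± 0.564, 12.3 ± 0.541 and 12 ± 0.581. With GENCODE M21 lengths Tfcp2l1 keeps its 9438 bases, and Ubp1 lies lower, at 29.1, 29.3 and 30.4 CPM per kilobase. Its log2 fold change was -0.01 over wildtype (95% interval -0.15 to 0.12, adjusted p = 0.93) and -0.12 over Myc (95% interval -0.28 to 0.03, adjusted p = 0.48). Of the 8 genes listed as CP2 relatives, partners or targets, Tfcp2l1 included, edgeR called 0 in each of the 3 comparisons. At an unadjusted p under 0.05 there were 0 in Grhl2KO_Myc against wildtype, 1 in Grhl2KO_Myc against Myc and 0 in Myc against wildtype, and DESeq2 and limma-voom called 0 in each.

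Genes linked to Grainyhead factors in other epithelia were then read in lists, which were chosen with earlier results of these data known. Counts called in these and later lists are therefore descriptions and give no support for a link to Grainyhead factors. Of all tested genes, 6.67% were called in Grhl2KO_Myc against wildtype and 0.842% in Grhl2KO_Myc against Myc. Of 14 junction and adhesion genes, 4 fell and 1 rose in Grhl2KO_Myc against wildtype, and 3 fell and 0 rose against Myc, with median log2 fold changes of 0.00 and -0.11 beside -0.01 and 0 over all tested genes. Cldn8, a tight junction claudin of the collecting duct, averaged 72.4 ± 10.9 CPM in Grhl2KO_Myc, 160 ± 13.1 in Myc and 146 ± 17.7 in wildtype, and fell against both (log2 fold changes -1.14 and -1.01, edgeR adjusted p = 0.00084 and 0.00037). Dsp, the desmosomal plaque protein, averaged 42.3 ± 4.06 CPM in Grhl2KO_Myc, 63.4 ± 1.84 in Myc and 60 ± 3.85 in wildtype (-0.58 and -0.50, adjusted p = 0.0023 and 0.001). The tight junction adaptor Cgn fell against both as well, at 41.9 ± 1.83 CPM in Grhl2KO_Myc, 57.9 ± 2.77 in Myc and 51.5 ± 3.01 in wildtype (-0.47 and -0.30, adjusted p = 0.0026 and 0.0071). Epcam, an epithelial adhesion molecule, averaged 171 ± 2.07 CPM in Grhl2KO_Myc, 208 ± 10.1 in Myc and 207 ± 13.5 in wildtype, and fell against wildtype (-0.28, adjusted p = 0.0097). Against Myc, Epcam differed by -0.29 and narrowly missed the threshold (edgeR adjusted p = 0.051). The 1 gene that rose was the claudin Cldn7, at 76.1 ± 4.57 CPM in Grhl2KO_Myc, 60.9 ± 1.69 in Myc and 56.2 ± 4.59 in wildtype (0.44 over wildtype, adjusted p = 0.0016). Over Myc, Cldn7 differed by 0.32, which did not pass (edgeR adjusted p = 0.06). Cdh1, E-cadherin and a known Grhl2 target, averaged 225 ± 12.1 CPM in Grhl2KO_Myc and 225 ± 8.81 in wildtype (adjusted p = 0.99), and Cldn4 55.1 ± 6.16 and 54.7 ± 4.36 CPM (adjusted p = 0.97). The count against Myc was 5 without wildtype 4, and also 5 without the 3 libraries low in proximal tubule transcripts. It was 5 as well with DESeq2, with only the 2 groups compared, and with the proximal tubule or the urothelial score as a covariate. A filter of at least 1 CPM in 3 libraries gave 5 too, and limma-voom gave 4.

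Of 10 trafficking, splicing and surface protease genes, 2 fell and 1 rose in Grhl2KO_Myc against wildtype, and 2 fell and 0 rose against Myc, with medians of -0.10 and -0.25. Of all tested genes 6.67% and 0.842% were called there. Arhgef19, a guanine nucleotide exchange factor that Grhl3 controls in mouse, averaged 10.4 ± 0.779 CPM in Grhl2KO_Myc, 26.1 ± 2.91 in Myc and 21.4 ± 3.2 in wildtype, and fell against both (-1.32 and -1.03, adjusted p = 0.00029 and 0.00037). Grhl3 rose against wildtype, and a link between these genes in the kidneys was not tested. Rab25, an epithelial recycling GTPase, averaged 8.48 ± 0.642 CPM in Grhl2KO_Myc, 15.5 ± 1.8 in Myc and 10.8 ± 0.808 in wildtype. It fell against Myc (-0.87, adjusted p = 0.001) and against wildtype (-0.35, adjusted p = 0.033), where the call was lost without Grhl2KO_Myc 1, 3 or 4 or wildtype 1, 3 or 5 (adjusted p 0.05 to 0.1), and without the 3 libraries low in proximal tubule transcripts (0.15). Ap1m2, the epithelial sorting adaptor, rose over wildtype, at 41.4 ± 2 CPM in Grhl2KO_Myc, 36.8 ± 2.46 in Myc and 30.3 ± 1.1 in wildtype (0.45, adjusted p = 0.00057). With a covariate for the proximal tubule score, 5 genes of the list were called against wildtype and 4 against Myc, and without the 3 libraries low in proximal tubule transcripts 4 were called against Myc.

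Of 18 epithelial transcription factors that act beside Grainyhead factors or against them, 3 fell and 2 rose in Grhl2KO_Myc against wildtype, and 2 fell and 0 rose against Myc, with medians of -0.02 and -0.08. Of all tested genes 6.67% and 0.842% were called there, and the list was chosen with earlier results of these data known. Elf5, an ETS factor of principal cells, averaged 5.75 ± 0.85 CPM in Grhl2KO_Myc, 25.4 ± 2.68 in Myc and 21.5 ± 1.41 in wildtype, and fell against both (-2.14 and -1.90, adjusted p = 4.5e-06 and 3.5e-06). Ovol2, which represses mesenchymal genes and is a known Grhl2 target, averaged 0.521 ± 0.154 CPM in Grhl2KO_Myc, 1.29 ± 0.092 in Myc and 1.04 ± 0.181 in wildtype (-1.30 and -0.99, adjusted p = 0.017 and 0.013), and its call against Myc was lost without Grhl2KO_Myc 4 or any 1 Myc library (0.056 to 0.09). Ehf, another ETS factor of epithelia, rose over wildtype, at 72 ± 6.37 CPM in Grhl2KO_Myc, 53 ± 7.22 in Myc and 42.7 ± 2.38 in wildtype (0.75, adjusted p = 0.00031). Over Myc, Ehf differed by 0.44 and narrowly missed the threshold (edgeR adjusted p = 0.051). Foxi1, the forkhead factor of intercalated cells, averaged 35.6 ± 4.94 CPM in Grhl2KO_Myc, 41.7 ± 13 in Myc and 22.9 ± 1.97 in wildtype. It was higher in Myc than in wildtype without overlap (0.87, edgeR adjusted p = 0.31, called by DESeq2), and Grhl2KO_Myc differed from Myc by -0.23 (adjusted p = 0.59), which was 0.03 without Myc 3. Over wildtype, Foxi1 rose in Grhl2KO_Myc (0.64, adjusted p = 0.026), a call lost without Grhl2KO_Myc 1, 3 or 4 or wildtype 1 or 3 (0.051 to 0.082), and without the 3 libraries low in proximal tubule transcripts (0.14). Zeb1, the repressor that acts against Grhl2 in other epithelia, was named after its values were seen. It averaged 47.5 ± 2.24 CPM in Grhl2KO_Myc, 50.3 ± 1.45 in Myc and 54.4 ± 2.71 in wildtype (-0.20 against wildtype, adjusted p = 0.034), a call lost without Grhl2KO_Myc 1, 3 or 4, Myc 1 or wildtype 1, 2, 3 or 5 (0.054 to 0.11). Ovol1 (-0.19, adjusted p = 0.3) and Lmo4 (-0.18, adjusted p = 0.079) did not pass against wildtype. Against wildtype the list held 3 calls without Grhl2KO_Myc 1, 3 or 4 or wildtype 1 or 3, and 9 without wildtype 4. Against Myc it held 1 call without Grhl2KO_Myc 4 or any 1 Myc library, and 4 without wildtype 4.

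In Myc against wildtype edgeR called 0 genes in each of these 3 lists. At an unadjusted p under 0.05 there were 2 junction genes, 4 trafficking genes and 5 transcription factors, DESeq2 called 0, 2 and 1, and limma-voom called 0 in each. The medians were 0.12, 0.17 and 0.14 beside 0 over all tested genes, with 14 of 14 junction genes, 10 of 10 trafficking genes and 14 of 18 transcription factors above 0.

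Markers of kidney cell types were read in the same comparisons. Of all tested genes 6.67% were called against wildtype and 0.842% against Myc, and 22% and 13.3% had an unadjusted p under 0.05. Of 12 principal cell markers, Gata2 rose and Aqp4 and Avpr2 fell in Grhl2KO_Myc against wildtype (log2 fold changes 0.65, -1.29 and -0.93, adjusted p = 0.0028, 0.0016 and 0.00029, list median -0.07), and 9 were called without wildtype 4. Of 12 intercalated cell markers Foxi1 rose and Aqp6 fell (-1.63, adjusted p = 0.0014, median -0.23). That count was 1 without Grhl2KO_Myc 3 or 4 or wildtype 1 or 3, and 5 without wildtype 4. Of 20 proximal tubule markers, 0 had a log2 fold change above 0 against wildtype (median -0.55), and 1, the nuclear receptor Hnf4a, was called, at 114 ± 13.7 CPM in Grhl2KO_Myc, 157 ± 14.5 in Myc and 178 ± 32.8 in wildtype (-0.65, adjusted p = 0.012, and 0.053 without the 3 low libraries). Without wildtype 4, 8 of the 20 were called. Of 10 thick limb markers edgeR called 0 (7 at an unadjusted p under 0.05, 4 by DESeq2 and 0 by limma-voom, median -0.26), with 1 called without Grhl2KO_Myc 1 and 5 without wildtype 4. Against Myc, 0 of the 12 intercalated cell markers had a log2 fold change above 0 in Grhl2KO_Myc (median -0.61), and Aqp6, Atp6v1c2 and Atp6v0d2 were called lower. Their summed level was 230 to 302 CPM in Grhl2KO_Myc, 377 to 449 in Myc and 178 to 367 in wildtype. The count against Myc was 1 without Grhl2KO_Myc 1, 2 or 4, any 1 Myc library or wildtype 2 or 3, and 6 without wildtype 4. Of the principal cell markers 2 fell against Myc (median -0.09), with 1 called without Grhl2KO_Myc 4, Myc 2 or Myc 3 and 5 without wildtype 4. Of the proximal tubule markers 2 of 20 were above 0 against Myc (median -0.58), and edgeR called 0 (1 at an unadjusted p under 0.05, 1 by DESeq2 and 0 by limma-voom). Of the thick limb markers 0 of 10 were above 0 against Myc (median -0.15), and edgeR called 0 (4 at an unadjusted p under 0.05, 0 by DESeq2 and 0 by limma-voom), with 1 called without wildtype 4.

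In Myc against wildtype 11 of 12 intercalated cell markers were above 0 (median 0.38), and edgeR called 0 of them (5 at an unadjusted p under 0.05, 4 by DESeq2 and 0 by limma-voom). The medians of the principal cell, proximal tubule and thick limb markers were 0.08, -0.01 and -0.04 there. The part of cell composition in the changes of the linked genes was not tested.

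Genes whose log2 CPM followed each member most closely over the 12 libraries were taken from 14029 genes, as a description of libraries that share genotype, depth and composition. Grhl3 was followed by Hacd1 (Pearson r = 0.93), Dcaf12l1 (0.92) and Cacnb2 (0.91), which came to 0.77, 0.76 and 0.74 within groups. Grhl2 was followed by Senp5 (0.94), Dnmbp (0.93) and Dach2 (0.93), with 0.90, 0.78 and 0.91 within groups and 0.96, 0.96 and 0.94 over the 9 libraries that were not low in proximal tubule transcripts. Grhl1 was followed by Ggps1 (0.87), Phtf2 (0.86) and Chd9 (0.84), and the value of Chd9 was 0.33 over those 9 libraries. Ubp1 was followed by Lrrn3 (0.96), Tcp11l2 (0.95) and Mir546 (0.95). Tfcp2 had the weakest followers, Exoc1 (0.82), Taf4a (0.80) and Ss18 (0.80).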

How the data were processed

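Polyadenylated RNA of 12 whole right kidneys was extracted with Qiazol and RNeasy columns with DNase, and made into libraries with a TruSeq kit that does not mark strand, per the labels' protocols. Reads were aligned with HISAT2 to mm10, per the submitters' processing notes. The sources used here give no aligner version, counting program or annotation. The deposited table holds read counts per gene and an exon width. Of its symbols 90.6% match GENCODE M21, from which gene positions come; promoters come from RefSeq (GRCm38.p6).

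The counts were tested with edgeR 4.0.16 in R 4.3.3: filterByExpr by group, TMM scaling, 1 quasi-likelihood fit of all 12 libraries without covariates, and Benjamini-Hochberg adjustment over 23742 genes, called under 0.05. Library totals ran from 52973520 to 108164810 counts. Standard errors come from the F statistic. Levels are TMM-scaled CPM; those per kilobase divide by the deposited width. Replicates of a group differed beyond counting noise (chi-square per degree of freedom at least 13.5 over genes with at least 20 reads in a pair), so each counted once. The fit was tested on simulated counts, with changes set in genes of at least 1 CPM. Of 1.5-fold changes it recovered 64.2% in Grhl2KO_Myc against wildtype, 50.7% in Grhl2KO_Myc against Myc and 59.7% in Myc against wildtype. Of 2-fold changes it recovered 82.1%, 86.6% and 88.1% in the same order. Small changes can therefore go uncalled.

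The members and lists were chosen with earlier results of these data known, and the motifs with the sequences known. Named genes were the members, Tfcp2l1, a set of genes named whatever their p (Ovol1, Ovol2, Cdh1, Epcam, Cldn4, Tgm1 and Lmo4, with 1 more that is not reported here), up to 3 genes of each list with the smallest adjusted p in Grhl2KO_Myc against wildtype, up to 3 called in Grhl2KO_Myc against Myc, and the 3 genes that followed each member most closely, among genes of at least 1 CPM. Alternatives were DESeq2 1.42.0, limma-voom 3.58.1, other scalings and filters, a replicate block, a Ddx3y term, marker scores as covariates, single libraries left out and the 3 libraries low in proximal tubule transcripts left out.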

Additional observations from a re-analysis of the deposited data

Results flagged for a closer look

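Tfcp2 stood at 42.7 CPM in Grhl2KO_Myc 4, against 38.8 to 39.3 CPM in the other 3 libraries of the group, a gap of 0.89 of the group's range. It was the only member and group marked for a distant library among 10 groups tested. Chance marks about 1 in 20 groups.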

How the results depend on the processing

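The number of genes called in Grhl2KO_Myc against wildtype was 2703 with DESeq2, 995 with only the 2 groups compared and 998 with a Ddx3y term, against 1584 in the reported fit, and it ran from 750 (without Grhl2KO_Myc 4) to 3778 (without wildtype 4) with 1 library left out. In Grhl2KO_Myc against Myc it was 777 with DESeq2 and 318 without the 3 libraries low in proximal tubule transcripts, against 200, and ran from 70 (without Myc 2) to 703 (without wildtype 4). In Myc against wildtype it was 44 with DESeq2, and 0 with limma-voom, with only the 2 groups and with the Ddx3y term, against 1, and ran from 0 to 6 (without Myc 1).

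For Grhl2 against wildtype DESeq2 gave -0.30 (adjusted p = 0.032), the proximal tubule covariate -0.34 (0.044) and omission of the 3 libraries -0.49, each now called, and single omissions gave -0.37 to -0.24. Against Myc its call was lost with upper-quartile scaling (-0.49, 0.053), the 2 groups alone (-0.51, 0.07) and the Ddx3y term (-0.49, 0.068), with single omissions at -0.59 to -0.43. Grhl3 over Myc was called with DESeq2 (0.87), the urothelial covariate (0.88) and a replicate block (1.00), and Grhl3 over wildtype in every setting run. The cause of these shifts was not tested.

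Values near 0 changed sign. Against wildtype, Cdh1 came to 0.01 with upper-quartile scaling and with no filter, and 0 with the urothelial covariate (single omissions -0.03 to 0.02). Tfcp2l1 came to 0 with no filter and 0.04 with the proximal tubule covariate (-0.05 to 0.01), Cldn4 to -0.04 with that covariate and -0.02 without the 3 libraries (-0.06 to 0.06), Tgm1 to 0.08 with that covariate, and Tfcp2 to -0.02 without the 3 libraries. Against Myc, Tfcp2 came to 0.01 with upper-quartile scaling and 0 with no filter and the proximal tubule covariate (-0.04 to 0.02), Ubp1 to 0.01 with upper-quartile scaling, 0 with no filter and 0.01 with the Ddx3y term (-0.04 to 0.01), Grhl1 ran from -0.01 to 0.15, and Foxi1 from -0.41 to 0.03.

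Replicate numbers did not pair the libraries: deviations of same-numbered libraries correlated at -0.11 to 0.23, -0.07 to 0.05 and -0.05 to 0.1 in the 3 comparisons, and 1 of 4, 1 of 3 and 2 of 3 libraries correlated best with their own number. With a replicate block 993, 88 and 0 genes were called. Under the block Grhl2 stood at -0.51 against Myc (edgeR adjusted p = 0.21) and Grhl3 at 1.00 over Myc (0.011). Against wildtype, Cdh1 stood at 0.02, Tfcp2l1 at 0.01 and Cldn4 at 0 under the block. Counting error was largest for Grhl3 and Grhl1 of the members, at 8.08% and 5.44% in their lowest libraries (153 and 338 reads). Their spread within groups was an SD of 0.36 and 0.19 on the log2 scale.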

Other observations

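Grhl3 and Grhl1 are known in mouse skin for genes of the cornified barrier, and 13 of 15 such genes had enough counts to be tested. In Grhl2KO_Myc against wildtype 1 fell and 0 rose, where 6.67% of all tested genes were called, with a median log2 fold change of -0.10. Ppl, periplakin of the cornified envelope, averaged 11.9 ± 2.19 CPM in Grhl2KO_Myc and 18.6 ± 3.29 in wildtype (-0.65, SE 0.15, edgeR adjusted p = 0.026). The call of Ppl was lost without Grhl2KO_Myc 4 (adjusted p = 0.063) or wildtype 1 (0.061), and without wildtype 4 the list held 2 calls. Tgm1, the transglutaminase that Grhl3 drives in mouse skin, averaged 9.9 ± 2.42 CPM in Grhl2KO_Myc and 13.3 ± 5.68 in wildtype (-0.43, SE 0.30, adjusted p = 0.45). In Grhl2KO_Myc against Myc edgeR called 0 of these genes, with 2 at an unadjusted p under 0.05, 1 by DESeq2 and 0 by limma-voom (median -0.32), and the count was 2 without wildtype 4. In Myc against wildtype edgeR called 0, with 1 at an unadjusted p under 0.05, 0 by DESeq2 and 0 by limma-voom (median 0.13).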
